A study of Homo sapiens with 6 samples.

Results

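The metallothionein genes, the zinc exporter gene SLC30A1 and MTF1, the gene of their shared zinc-sensing activator, were examined in SUM159 cells with and without overexpressed POGK. The members were chosen by name, and 6 of the 9 names (MT2A, MT1E, MT1X, MT1F, MTF1 and SLC30A1) were found among the 18398 genes of the deposited count table. MT1A, MT1G and MT1M were not analysed here. SUM159 is an established triple-negative breast cancer line. The control group was 3 libraries of SUM159 cells labelled with pLVX, a lentiviral vector, and no insert named, and the other group, called POGK, was 3 libraries of SUM159 cells stably overexpressing POGK from pLVX. All cells were grown in Ham's F12 medium with serum, insulin and hydrocortisone, a glucocorticoid, so both groups carried that hormone. The labels do not say whether the stable cells were a pool or a clone, nor whether replicates were separate cultures, so each p-value reflects only how these libraries scatter, which may be technical.

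Metallothioneins are small, cysteine-rich proteins that bind zinc and copper and buffer the free metal inside the cell. Their symbols (MT1, MT2) are unrelated to the MT- prefix of mitochondrial genes. When zinc rises, MTF1, a zinc finger transcription factor, binds metal response elements in the promoters of metallothionein genes and of SLC30A1, which encodes a plasma membrane transporter that carries zinc out of the cell. Zinc load, cadmium, oxidants and glucocorticoids are textbook inducers of metallothioneins, and MT2A is the isoform usually most abundant in cultured human cells.

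The promoters that could be matched differ in how they carry the letters that MTF1 is known to recognise. RefSeq promoter sequences (GRCh38.p14, the same chromosomes as hg38) were matched for 4 of the 6 members, and not for MT1E and MT1F. Bases after the start were not searched. Whether the matches relate to the measured changes was not tested. The 250 bases before the start are given 5′ to 3′ for 3 of them, and the capitals mark each match to the core of the metal response element (TGCACNC or TGCGCNC, either strand).
MT2A (chr16:56608334-56608583, plus strand): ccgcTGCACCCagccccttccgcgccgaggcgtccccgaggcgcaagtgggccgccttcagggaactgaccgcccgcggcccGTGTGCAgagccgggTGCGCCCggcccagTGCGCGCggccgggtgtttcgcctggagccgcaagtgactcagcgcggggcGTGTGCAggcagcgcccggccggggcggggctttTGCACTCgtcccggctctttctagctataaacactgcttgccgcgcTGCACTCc
MT1X (chr16:56682220-56682469, plus strand): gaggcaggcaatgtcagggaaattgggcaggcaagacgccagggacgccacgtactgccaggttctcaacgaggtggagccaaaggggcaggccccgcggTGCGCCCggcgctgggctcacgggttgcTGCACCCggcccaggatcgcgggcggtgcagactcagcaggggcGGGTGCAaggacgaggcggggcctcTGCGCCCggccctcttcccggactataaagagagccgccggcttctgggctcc
SLC30A1 (chr1:211579162-211579411, minus strand): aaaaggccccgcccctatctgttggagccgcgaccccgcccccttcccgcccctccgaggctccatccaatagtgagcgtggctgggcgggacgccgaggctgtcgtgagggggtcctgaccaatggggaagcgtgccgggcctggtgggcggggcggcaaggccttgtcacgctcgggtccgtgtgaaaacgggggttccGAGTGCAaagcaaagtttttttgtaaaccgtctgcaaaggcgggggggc
MT2A held 7 matches, 5 on the plus and 2 on the minus strand, between 246 and 8 bases before the start. MT1X held 4, of which 1 overlapped a GC box (GGGCGG), and SLC30A1 held 1, at 49 bases before the start. Of 35116 promoter windows of the same length, 24.8% held at least 1 match, 0.370% at least 4 and 0.0313% at least 7. The fourth matched promoter, that of MTF1, held none of these letters in its window. TATAAA stood 29 bases before the start of MT2A and 30 bases before that of MT1X, and was not found in the SLC30A1 window, which instead held 6 GC boxes.

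The libraries held 27645789 to 33689230 counts. POGK itself had 1555 to 2423 counts in control cells and 23128 to 28258 in POGK cells, which matched the labels. Of 4 markers listed as high in SUM159, VIM and CD44 lay at 686 CPM or more in every library, AXL between 347 and 448 and ZEB1 between 48.4 and 63.0 CPM (CPM, each count scaled to its library's total after TMM normalisation), while ESR1 and EPCAM stayed at or below 0.337 CPM. ERBB2, listed as low, lay between 66.4 and 87.5 CPM, above ZEB1. PGR and CDH1, also listed as low, were not analysed here. By the edgeR test described below, VIM, CD44 and ZEB1 were lower in POGK cells, at log2 fold changes of -0.83, -0.26 and -0.33. AXL and ERBB2 were higher, at 0.32 and 0.23. All of these had adjusted p-values below 0.05. Of 6 markers of other cells, PTPRC, PECAM1 and CSF1R had values and together reached 5.72 to 7.11 CPM in control and 6.61 to 7.93 CPM in POGK libraries; CD3E, CDH5 and ALB were not analysed here. PTPRC, a leukocyte marker, rose from 0.53 ± 0.22 to 1.66 ± 0.30 CPM and CSF1R, a macrophage marker, rose from 0.79 ± 0.34 to 1.53 ± 0.55 CPM, while PECAM1, an endothelial marker, fell from 5.18 ± 0.82 to 3.97 ± 0.09 CPM (SD, n = 3 each). Their part in the results was not tested. In bulk RNA, fewer cells of a type and less RNA per cell cannot be told apart. The control libraries differed from each other far more than the POGK libraries did, with a chi-square per gene of 22.5 to 49.7 between control pairs against 1.36 to 2.62 between POGK pairs.

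The members split. MT2A and MT1E were higher in POGK cells, by 2.48-fold and 3.16-fold, while SLC30A1 was lower by 1.52-fold. MT1X and MT1F were slightly lower, with adjusted p-values just under the threshold of 0.05, and MTF1 did not pass. By edgeR's quasi-likelihood test with Benjamini-Hochberg adjustment, 2 members were higher and 3 lower of the 6 tested. Across all 15889 genes tested 66.0% were called, 32.7% higher and 33.3% lower, so the number of called members by itself does not set them apart. With libraries scaled by size alone, the median log2 fold change over all genes became 0.19 and the share of called genes that were higher went from 49.6% to 62.6%. Directions are therefore relative to the TMM scale.

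**Figure D1:**
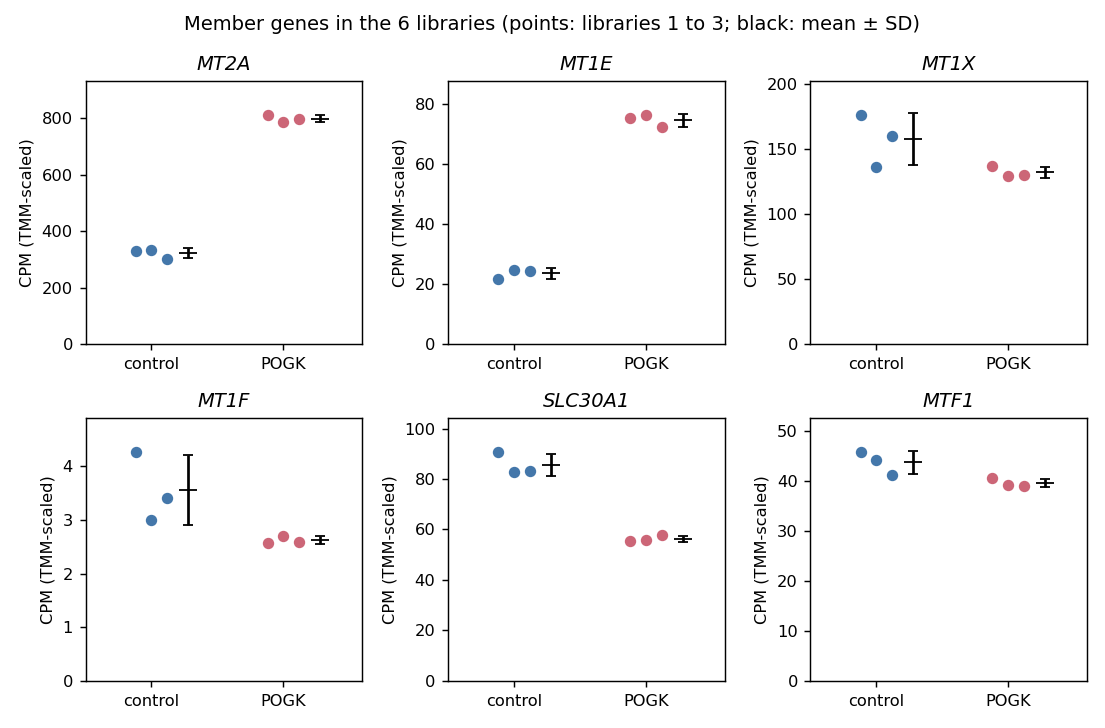
Level of each member gene in CPM (TMM-scaled, y axis from 0) in the 3 control (blue) and 3 POGK (red) libraries; black bars give mean ± SD. MT2A and MT1E sit far above their control values in all 3 POGK libraries, SLC30A1 sits below, and MT1X is the member whose groups overlap.

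MT2A (ENSG00000125148; hg38 chromosome 16, 56608584 to 56609497, plus strand) is the main metallothionein of these cells. Control libraries gave 8210, 10444 and 8956 raw counts, and POGK libraries gave 29001, 28492 and 23656. In CPM these were 330, 333 and 302 against 811, 788 and 798. The lowest POGK library thus lay above every control library by more than the whole spread within either group. The means were 322 ± 17.5 and 799 ± 11.6 CPM (SD, n = 3 each), and the log2 fold change of 1.31 (SE 0.08) had an edgeR adjusted p of 4.39e-06. The authors' deposited table lists MT2A at 1.31 (SE 0.09) on the same scale.

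MT1E (ENSG00000169715; chromosome 16, 56625475 to 56627112, plus strand) encodes another isoform of the MT1 group, and its change was the largest of the 6. The counts were 537, 781 and 721 in control cells and 2699, 2763 and 2144 in POGK cells. This corresponds to 21.6, 24.9 and 24.3 CPM against 75.4, 76.4 and 72.3 CPM. The groups lay far apart, and control replicate 1 was the lowest library. The means were 23.6 ± 1.76 and 74.7 ± 2.12 CPM, and the log2 fold change of 1.66 (SE 0.08) had an edgeR adjusted p of 2.63e-06. Among all genes tested, MT1E ranked 401 and MT2A ranked 791 from the top by log2 fold change, so many genes rose more.

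MT1X (ENSG00000187193; chromosome 16, 56682470 to 56684196, plus strand), the next most abundant metallothionein here, did not rise. Its values were 176, 136 and 160 CPM in control cells and 137, 129.6 and 129.9 CPM in POGK cells. Control replicate 2 lay between the POGK values, so the groups overlapped, and control replicate 1 was the highest. The means were 158 ± 19.999 and 132 ± 4.32 CPM, and the log2 fold change of -0.25 (SE 0.09) had an edgeR adjusted p of 0.0406. That call was lost without control replicate 1 (log2 fold change -0.16, adjusted p 0.0843), without control replicate 3 (0.106) and without POGK replicate 1, 2 or 3 (0.0762, 0.127 and 0.129), as well as with DESeq2 (0.0619), with the exon length trend (0.0571) or the GC trend (0.0924) removed, and with library size alone (-0.05, adjusted p 0.568). It passed in 7 of 16 alternatives. For MT1X, the adjusted p listed by the authors' deposited table is 0.120.

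MT1F (ENSG00000198417; chromosome 16, 56657731 to 56660698, plus strand) was detected at low depth. The counts were 106, 94 and 101 in control cells and 92, 98 and 77 in POGK cells. Scaled, they were 4.27, 3.0004 and 3.40 CPM against 2.57, 2.71 and 2.60 CPM. After scaling the groups did not overlap, whereas the raw counts did, and control replicate 1 was the highest library. MT1F changed by -0.43 on the log2 scale (SE 0.17), with 0.0476 as its edgeR adjusted p. Only 4 of 16 alternatives kept this call. Without control replicate 1 the log2 fold change was -0.28 at an adjusted p of 0.131, without control replicate 3 the adjusted p was 0.0701, and without POGK replicate 1, 2 or 3 it was 0.131, 0.106 and 0.126. With library size alone the change of MT1F was -0.23 at an adjusted p of 0.208.

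SLC30A1 (ENSG00000170385; chromosome 1, 211571568 to 211579161, minus strand), the zinc exporter of the plasma membrane, went the opposite way to MT2A and MT1E. Its levels were 90.7, 83.0 and 83.1 CPM in control cells and 55.3, 55.8 and 57.7 CPM in POGK cells. All POGK libraries lay below all control libraries, and the distance between the groups exceeded the spread within each. The means were 85.6 ± 4.41 and 56.3 ± 1.25 CPM, and the log2 fold change of -0.61 (SE 0.07) had an edgeR adjusted p of 8.10e-05.

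MTF1 (ENSG00000188786; chromosome 1, 37809574 to 37859592, minus strand) encodes the transcription factor that acts on the metallothioneins and SLC30A1. It was measured at 45.7, 44.2 and 41.2 CPM in control cells and 40.5, 39.2 and 39.0 CPM in POGK cells. The ranges did not overlap, as for 73.7% of all genes tested, yet control replicate 3 lay close to the POGK libraries. The log2 fold change of MTF1 was -0.14 (SE 0.07), which missed the threshold with an edgeR adjusted p of 0.114. It passed in 1 of 16 alternatives, without control replicate 3, at a log2 fold change of -0.19 and an adjusted p of 0.0468, and its sign turned with library size alone, to 0.052. These counts report mRNA and do not show where the MTF1 protein is or how active it is.

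**Figure D2:**
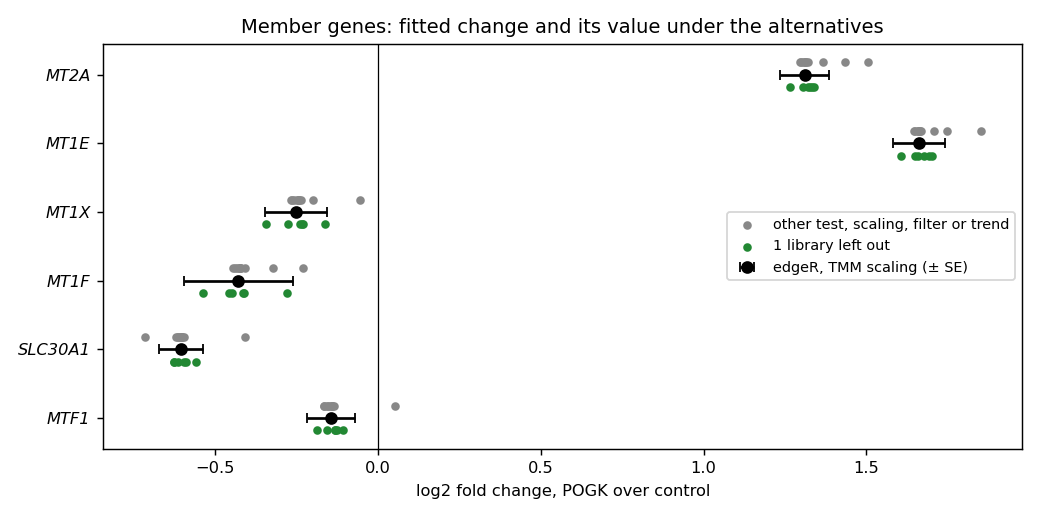
Log2 fold change of POGK over control for each member: black points with SE bars are the edgeR estimates, grey points other tests, scalings, filters and trend corrections, and green points the fits with 1 library left out. MT2A, MT1E and SLC30A1 keep their side of 0 and of the threshold throughout. MT1X comes as near to 0 as -0.05 and MT1F as -0.23, neither keeping its call throughout, and MTF1 has 1 value above 0.

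MT2A, MT1E and SLC30A1 passed in all 16 alternatives. The log2 fold changes there ran from 1.26 to 1.51 for MT2A, from 1.61 to 1.85 for MT1E and from -0.72 to -0.41 for SLC30A1.

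Ordered by level per kilobase of annotated exon, the members kept 1 order in both groups: MT2A, MT1X, MT1E, SLC30A1, MTF1 and MT1F. In control cells the levels were 352 ± 19.1 CPM per kb for MT2A, 91.2 ± 11.6 for MT1X and 22.4 ± 1.67 for MT1E. Below them lay SLC30A1 with 14.5 ± 0.75, MTF1 with 5.47 ± 0.29 and MT1F with 1.92 ± 0.35 CPM per kb. No neighbours in that order overlapped between libraries of 1 group. In POGK cells the gap between MT1X and MT1E closed to 76.6 ± 2.50 against 71.0 ± 2.01 CPM per kb, while MT2A reached 874 ± 12.6 CPM per kb. By this measure MT2A ranked 84 among 18264 genes with an annotated exon length in control cells and 22 in POGK cells. Exon lengths cover all annotated isoforms, so a gene with long rare forms appears lower than its main mRNA.

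Summed over MT2A, MT1E, MT1X and MT1F, metallothionein mRNA went up 1.99-fold, from 507 ± 22.6 to 1008 ± 15.5 CPM (SD, n = 3 each). The sums were 532, 498 and 490 CPM in control cells and 1026, 996 and 1003 CPM in POGK cells. Since all of the gain came from MT2A and MT1E, the make-up of the family shifted as well. Of all metallothionein counts, MT2A took 62.1%, 67.0% and 61.6% in control cells and 79.0%, 79.05% and 79.6% in POGK cells. The share of MT1X went from 33.1%, 27.4% and 32.8% to 13.4%, 13.01% and 12.95%. MT1E took 4.06% to 5.01% in control and 7.21% to 7.67% in POGK libraries. The shares do not depend on how libraries are scaled, and the groups were separate for each of these 3 isoforms. For MT2A in control replicate 1 the exact 95% binomial interval was 61.2% to 62.9%, and in POGK replicate 1 it was 78.6% to 79.4%, which covers counting error only.

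**Figure D3:**
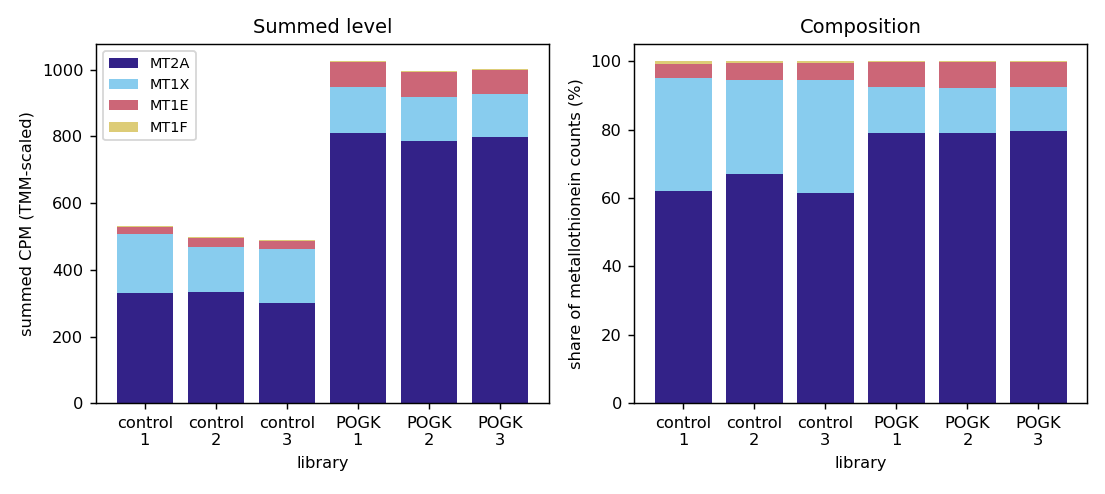
Left, summed CPM (TMM-scaled) of the 4 metallothionein members in each library, stacked by gene; right, the share of each gene in the metallothionein counts (%). The stack is 1.99-fold higher in POGK libraries through MT2A and MT1E, and the MT1X share goes from between 27.4% and 33.1% to between 12.95% and 13.4%.

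Ratios of counts within a library, which no scaling can change, were compared for all 15 pairs of members with a two-sided exact permutation test. With 3 against 3 libraries its smallest possible p is 0.1, so no pair could pass. The ranges of the groups were separate in 12 of 15 pairs, each at an exact permutation p of 0.1, or 0.125 after Benjamini-Hochberg adjustment over the 15 pairs. For single genes, which is an unlike measure, the CPM ranges were separate in 73.7% of all genes tested. The pairs share 6 genes and are not independent, and no share was computed for pairs of other genes. Whether 12 of 15 sets the members apart therefore cannot be said. The ratio of MT2A to MT1X was 1.88, 2.45 and 1.88 in control cells and 5.91, 6.08 and 6.14 in POGK cells. That of MT2A to SLC30A1 was 3.64, 4.02 and 3.63 against 14.7, 14.1 and 13.8. MT2A therefore gained on the transporter in every POGK library. MT1E gained on MT2A too, with MT2A to MT1E ratios of 15.3, 13.4 and 12.4 in control and 10.7, 10.3 and 11.0 in POGK cells. The pairs whose ranges overlapped were MT1X with MTF1, MT1F with SLC30A1 and MT1F with MTF1.

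Metallothionein genes resemble each other, which bears on how reads are assigned. Against the transcripts of 21 genes and pseudogenes with metallothionein symbols in GENCODE release 44, 4.18% of the 50-base words of MT2A, 7.10% of those of MT1E, 3.73% of those of MT1X and 1.24% of those of MT1F also occurred in another of these genes. No word of 100 bases was shared. The words were pooled over all annotated transcripts of each gene, whose exons cover the whole span of MT2A (914 bases) and of MT1X. The share within the main mRNA alone was not computed and could be larger. Nothing used here states the read length or how reads with several matches were treated, so the levels of single isoforms carry this uncertainty. The whole of MT1X, 1727 bases, also lies within the span of a long non-coding RNA gene on its own strand. A strand setting could not separate reads from any exons they share. The span of MTF1 overlaps a pseudogene on the other strand over 691 bases. Reads from any shared exons there cannot be told apart unless strand was used in counting. Spans and not exons were compared, so shared exons were not established. Neither the non-coding RNA gene nor the pseudogene had a row. Of the other metallothionein genes and pseudogenes on the list, MT1XP1 and MT2P1 had rows, both under the filter on low counts. MT1XP1, a pseudogene, had 10, 7 and 10 counts in control cells and 4, 1 and 3 in POGK cells, and MT2P1 0, 3 and 5 against 4, 5 and 4.

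The metallothionein members lie within a stretch of chromosome 16 in which MT1E starts 16.9 kb, MT1F 49.1 kb and MT1X 73.9 kb from the start of MT2A. The 2 genes that rose are adjacent among the members, and the 2 with the small decreases lie beyond them. Those decreases were unstable calls, kept in 7 of 16 alternatives for MT1X and 4 of 16 for MT1F. Of 12 tested genes around the cluster, 6 were higher and 3 lower, where 66.0% of all genes tested were called, with a median log2 fold change of 0.13 against 0.0025 for all genes tested (0.32 against 0.19 with library size alone). NUP93, the gene of a nuclear pore scaffold protein, starts 122 kb from MT2A and was 2.50-fold higher, with 33.9, 60.4 and 41.5 CPM in control and 113, 116 and 111 CPM in POGK cells. On the same side PSME3IP1 rose from 66.8 ± 7.11 to 100.3 ± 1.63 CPM and NLRC5, an activator of MHC class I genes, rose 1.42-fold. The nearest tested gene on the other side, BBS2, fell 1.53-fold; it lies outside the rule for named genes and was picked with its values known.

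**Figure D4:**
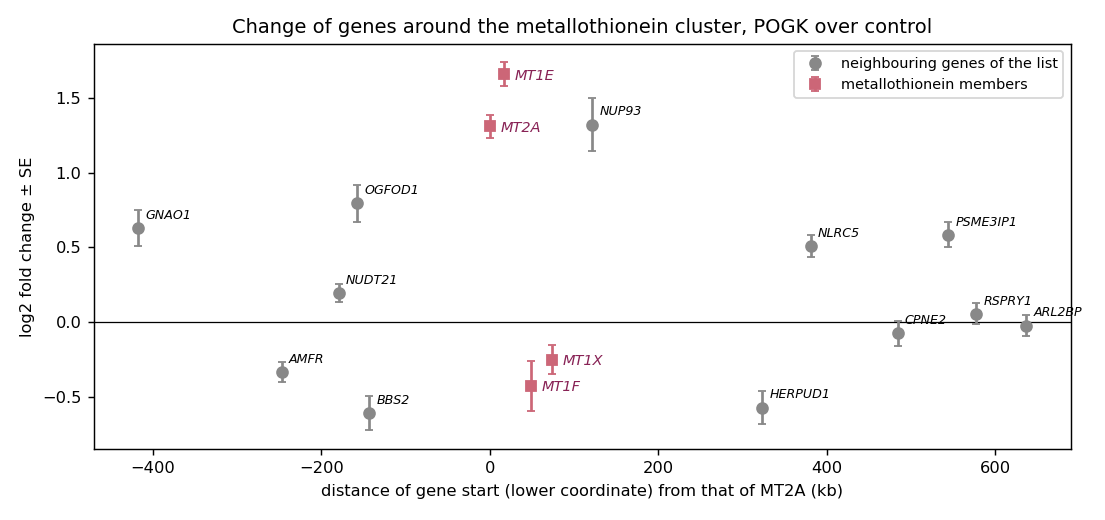
Log2 fold change (POGK over control, ± SE) of the metallothionein members (red squares) and of the listed neighbouring genes (grey circles), plotted by the distance of each gene's start from that of MT2A in kb. MT2A and MT1E lie at 1.31 and 1.66, MT1F and MT1X within 73.9 kb of MT2A lie below 0, and the neighbours scatter on both sides of 0.

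The remaining genes of zinc transport moved in both directions, as did the other lists described next, whose counts are to be read against 32.7% higher and 33.3% lower over all genes tested. Of 6 other tested zinc exporters of the SLC30 family, 3 rose and 2 fell, with a median log2 fold change of 0.22 (0.41 with library size alone). SLC30A6 rose 2.17-fold, from 10.9, 22.1 and 17.5 CPM to 34.7, 37.6 and 37.5 CPM. SLC30A5 rose 1.36-fold and SLC30A7 rose 1.27-fold; these 3 transporters load zinc into the secretory pathway, and all 3 passed in 16 of 16 alternatives. SLC30A4 and SLC30A3, which fill intracellular vesicles, had log2 fold changes of -0.39 and -0.54 at edgeR adjusted p-values of 0.0251 and 0.0323. SLC30A4 did not pass without POGK replicate 1, 2 or 3, and SLC30A3 did not pass without control replicate 1 or 3 or POGK replicate 2 or 3, at adjusted p-values up to 0.0832 and 0.126. Neither passed with library size alone, where the number of exporters that fell was 0, as it was without POGK replicate 2 or 3.

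Of 11 tested zinc importers of the SLC39 family, which bring zinc into the cytosol, 3 rose and 5 fell, with a median log2 fold change of -0.20 that was -0.01 with library size alone. SLC39A3 rose 2.49-fold, from 6.28, 9.48 and 7.04 CPM to 18.1, 18.3 and 20.6 CPM. SLC39A6 and SLC39A10, a closely related pair of plasma membrane importers, rose 1.31-fold and 1.26-fold. The control and POGK libraries were separate for all 3, as they were for 73.7% of all genes tested. SLC39A14, which also carries iron and manganese, fell from 204 ± 8.42 to 158 ± 1.86 CPM, and SLC39A1 fell from 168 ± 18.6 to 124 ± 0.80 CPM. Smaller decreases were measured for SLC39A9 of the Golgi (log2 fold change -0.31), SLC39A7 of the endoplasmic reticulum (-0.26) and SLC39A8 (-0.20). None of these 3 passed with library size alone. SLC39A7 and SLC39A8 were also lost without control replicate 3 or any POGK replicate, at adjusted p-values up to 0.109 and 0.118, which left 3 importers that fell.

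Copper shares the metallothioneins with zinc. Of 11 tested genes of copper handling, 4 rose and 3 fell, with a median log2 fold change of 0.12 (0.32 with library size alone, where 7 rose and 1 fell). The number that rose was 2 without POGK replicate 2, and the number that fell was 1 without control replicate 3 or any POGK replicate. SLC31A1, the copper importer of the plasma membrane, fell 1.34-fold, from 176, 158 and 157 CPM to 128, 119 and 120 CPM. COX11 and SCO1, which deliver copper to cytochrome c oxidase, rose 1.61-fold and 2.68-fold. SCO1 was uneven in control cells, at 18.2, 33.5 and 24.3 CPM, but still below the POGK libraries at 67.2, 67.1 and 70.2 CPM. SOD1, the copper-zinc superoxide dismutase, was not called, with a log2 fold change of 0.17 and an edgeR adjusted p of 0.0607.

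Genes of iron handling moved in both directions as well. Of 15 tested, 5 rose and 8 fell, with a median log2 fold change of -0.39 (-0.20 with library size alone). TFRC, the transferrin receptor that brings iron in, rose 3.21-fold. Its levels were 161, 374 and 193 CPM in control cells, with control replicate 2 the highest, and 782, 781 and 775 CPM in POGK cells. The ferritin chains that store iron went the other way: FTH1 fell from 14084 ± 2417 to 7610 ± 332 CPM and FTL fell from 5663 ± 989 to 2472 ± 121 CPM. STEAP3, an endosomal iron reductase, fell 2.17-fold, and the copper-dependent ferroxidase genes CP and HEPH fell 3.04-fold and 22.0-fold. HEPH had 107, 91 and 122 counts in control and 6, 6 and 5 in POGK cells.

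Genes that respond to cadmium, zinc or oxidants alongside the metallothioneins moved both ways. Of 14 tested, 5 rose and 3 fell, against 32.7% higher and 33.3% lower over all genes tested, with a median log2 fold change of 0.24 (0.44 with library size alone, where 8 rose). Without POGK replicate 2, 3 rose. GCLM, a subunit of the first enzyme of glutathione synthesis, rose from 91.0 ± 13.04 to 169 ± 4.90 CPM. HMOX1, heme oxygenase, rose 1.47-fold, from 327, 239 and 281 CPM to 439, 398 and 405 CPM. NDRG1 fell 12.6-fold.

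Genes on the list of glucocorticoid response, a group to which MT2A is known to belong, were mostly lower. Of 17 tested, 13 fell and 3 rose, where 33.3% of all genes tested fell. The list was chosen with earlier results of these data known, so these counts describe it and do not establish an excess. It also holds the receptor gene NR3C1, which fell, and the enzyme genes HSD11B1 and HSD11B2, which rose. The counts thus mix target genes with genes of hormone sensing and metabolism. Their median log2 fold change was -1.44, or -1.24 with library size alone. NR3C1, the glucocorticoid receptor gene, fell 1.63-fold, from 218, 231 and 185 CPM to 125, 132 and 132 CPM. ZBTB16 fell from 177 ± 31.7 to 43.1 ± 2.71 CPM and TFCP2L1 fell from 7.28 ± 1.04 to 0.69 ± 0.14 CPM. HSD11B1, whose enzyme regenerates active glucocorticoid, rose 2.68-fold, and HSD11B2, whose enzyme inactivates it, rose 2.35-fold at low depth, from 6, 6 and 9 counts to 19, 24 and 16 (named outside the rule, with its values known). Also outside the rule, SGK1 rose in 16 of 16 alternatives, at log2 fold changes of 1.05 to 1.85. FKBP5 passed in 0 of 16 (-0.15 to 0.14) and CEBPD in 7 of 16 (-0.22 to 0.03). MT2A and MT1E rose while most genes on this list fell, and whether glucocorticoid action had a part was not tested.

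**Figure D5:**
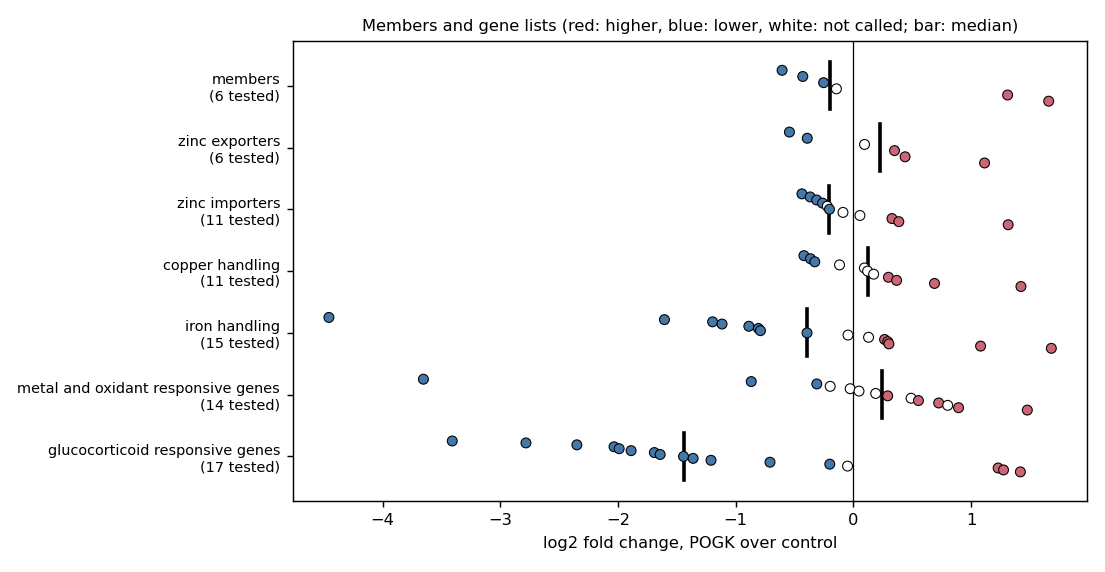
Log2 fold change of POGK over control for the 6 members and for the tested genes of 6 lists, 1 point per gene (red higher, blue lower, white not called); black bars give the median of each row. The genes of the glucocorticoid list lie mostly to the left with a median of -1.44, whereas zinc and copper genes lie on both sides of 0. All lists were chosen with earlier results of these data known.

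The 5 protein-coding genes with the profile closest to the summed metallothionein level over the 6 libraries, by Pearson's r on log2 CPM among 9249 genes averaging 10 CPM or more, were SSR3, TOP1, CNP, ACSL4 and NSDHL. With the libraries in 2 separate groups, such an r reflects mostly the group difference, and 166 genes exceeded 0.99. The fold change within this set ran from 1.34 for TOP1, a DNA topoisomerase, to 2.74 for NSDHL, an enzyme of cholesterol synthesis.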

How the data were processed

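Per the labels' protocols, ribosomal RNA was depleted from total RNA and reads were aligned to hg38; the submitters' processing notes name Trimmomatic, STAR, SAMtools, deepTools and featureCounts. For annotation, strand setting and versions, nothing was given in the sources used. The authors deposited raw counts per Ensembl gene and, beside each, a signal value equal to the count over a size factor. The deposited comparison holds, per the file headers, a log2 fold change, its error, a score and p-values.

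Counts were tested with edgeR 4.0.16 (R 4.3.3): quasi-likelihood test, robust estimation, TMM scaling, the default low-count filter, all 6 libraries, group as the only term, Benjamini-Hochberg adjustment over 15889 genes. Standard errors were derived from the F statistic. Libraries held 27645789 to 33689230 counts, and the spread between replicate libraries, which exceeded counting noise, entered the test. Alternatives were DESeq2 1.42.0, limma-voom 3.58.1, other scalings and filters, protein-coding genes only, a replicate block, and leaving out each library. Removing trends in exon length or GC content was added after seeing the data. The code was tested on simulated data. Positions and exon lengths came from GENCODE release 44 (hg38).

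The members and gene lists were chosen with earlier results of these data known. Genes named were the members, POGK, the 3 members of each list with the smallest adjusted p, every zinc transporter that passed, NR3C1, SOD1, SLC31A1, TFRC, FTH1, FTL, HMOX1 and SLC39A10, and the 5 genes closest in profile.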

Additional observations from a re-analysis of the deposited data

How the results depend on the processing

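MT2A, MT1E and SLC30A1 kept their direction and their call under every alternative run. Of the members, 1 fell in place of 3 with DESeq2, with library size alone and with the GC trend removed (added after seeing the data), and 1 to 3 fell with 1 library left out, while 2 rose throughout. MTF1 turned to 0.052 with library size alone. The log2 ratio of summed metallothionein CPM was 1.19 with library size alone, against 0.99 with TMM, and 0.97 to 1.03 with 1 library left out. With library size alone, 0 zinc exporters and 2 importers fell, 7 copper genes rose and 1 fell, and 8 metal and oxidant responsive genes rose. With 1 library left out, 0 to 2 exporters and 3 to 5 importers fell, 2 to 6 copper genes rose and 1 to 3 fell, and 3 to 7 metal and oxidant responsive genes rose. The metallothionein pseudogene MT1XP1 was called lower with DESeq2 and without a filter, and 0 to 1 genes of its list fell with 1 library left out. Of 296 counts and sums recomputed, 261 stayed within the limit set for each, which for counts was a change of at most 1.5 times. That limit is wide: 3925 genes lower over all genes with library size alone, against 5285, stayed within it. A list with 0 genes called in both fits was also taken as within it. Under the replicate block 1 copper gene fell in place of 3, and 5136 genes were higher and 5103 lower in place of 5202 and 5285. Same-numbered libraries correlated at 0.09, 0.04 and 0.0028 in their deviations from group means. The 0.09 of replicate 1 was the highest for any control with any POGK library, while control replicate 2 correlated best with POGK replicate 3. With deviations taken within 3 libraries per group, these values cannot show whether libraries were paired. At 77 to 106 counts, a change of MT1F as small as that measured rested on few reads.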
